A study of Mus musculus with 9 samples.

Results

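Transcripts of 8 receptor tyrosine kinase genes, Kit, Flt3, Igf1r, Insr, Fgfr1, Axl, Mertk and Ddr1, were examined in mouse regulatory T cells (Tregs) that lack or retain Ezh2. They were taken by gene symbol from a table of 43432 genes, and all 8 were present. The 8 were selected on their counts in these libraries, with the outcome of the Ezh2-deficient against WT contrast known, so their levels in that contrast are given as a description and carry no p-value. RNA was sequenced from 9 cultures of Tregs, the CD4 T cells that express Foxp3. All mice were C57BL/6 and carried Foxp3-Cre-GFP, a Cre recombinase expressed with Foxp3, together with the reporter R26-LSL-RFP, so no library is free of Cre. In the mice behind the 4 Ezh2-deficient libraries both alleles of Ezh2 were floxed (Ezh2-fl/fl). Of the 5 WT libraries, replicate 1 came from a mouse with 1 floxed allele (Ezh2-fl/+), and replicates 2 to 5 came from Ezh2-+/+ mice. All cultures were started from sorted CD62L-high Tregs and stimulated with beads against CD3 and CD28. They were grown with 2000 U/ml interleukin-2, without further treatment, and taken on day 4. The study thereby set activated Tregs without Ezh2, the methyltransferase subunit of the Polycomb repressive complex PRC2, against those that have it.

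Receptor tyrosine kinases are single-pass membrane receptors. In many of them, though not in Insr and Igf1r, a ligand brings receptors together. The intracellular kinase domains of paired receptors phosphorylate each other and recruit adaptors that feed the RAS-ERK and PI3K-AKT pathways. Kit, the receptor of stem cell factor, and Flt3 are known from blood progenitors, with Kit kept in mast cells and Flt3 in dendritic cells. Insr and Igf1r bind insulin and insulin-like growth factors, Fgfr1 binds fibroblast growth factors, and Ddr1 binds collagen. Axl binds Gas6, and Mertk binds Gas6 and protein S, ligands that bridge these receptors to dying cells.

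Sequencing gave 33718125 to 62201921 counts for each Ezh2-deficient library, against 32469450 to 59796319 for each WT library. Ezh2 itself was at 161 ± 6.49 CPM (counts relative to the library total, scaled by trimmed means of M-values) in Ezh2-deficient cultures and 296 ± 50.5 CPM in WT cultures (SD, n = 4 and n = 5), without overlap between the groups. This count covers all exons of Ezh2 and does not measure a deleted stretch alone. The summed level of 8 Treg genes, among them Foxp3 and Il2ra, was 11171 to 12029 CPM in Ezh2-deficient and 10231 to 11202 CPM in WT libraries. The libraries also divided on a score of 22 hypoxia-response genes, none of which passed the test between the groups (0 of 22 also at an unadjusted p under 0.05, with DESeq2 and with limma-voom). It was high in Ezh2-deficient replicates 1 and 4 and WT replicates 1, 2 and 4 (0.539 to 0.836, a mean of centred log2 CPM) and low in Ezh2-deficient replicates 2 and 3 and WT replicates 3 and 5 (-0.882 to -0.811). These were bulk samples, in which fewer cells of a type and less RNA per cell cannot be told apart.

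The stretches just upstream of the RefSeq starts of Kit, Ddr1 and Axl are shown. They were taken because these 3 genes were the listed ones that stood farthest apart between the groups among those with at least 1 CPM in every library. Each is the 250 bases before the RefSeq start (GRCm38.p6), written 5′ to 3′ on the strand of the gene, with each CG dinucleotide in capitals. The Kit stretch lies at chr5:75574737-75574986 (plus strand), that of Ddr1 at chr17:35704600-35704849 (minus strand) and that of Axl at chr7:25788734-25788983 (minus strand). The gene positions given below are from GENCODE, and by these the last 71 bases of the Kit stretch and the last 22 of the Ddr1 stretch lie inside the gene.
Kit: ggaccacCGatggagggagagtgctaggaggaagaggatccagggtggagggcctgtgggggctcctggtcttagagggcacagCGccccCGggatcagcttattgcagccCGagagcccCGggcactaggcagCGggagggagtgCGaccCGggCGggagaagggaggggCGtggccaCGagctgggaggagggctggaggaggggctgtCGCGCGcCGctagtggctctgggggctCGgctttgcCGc
Ddr1: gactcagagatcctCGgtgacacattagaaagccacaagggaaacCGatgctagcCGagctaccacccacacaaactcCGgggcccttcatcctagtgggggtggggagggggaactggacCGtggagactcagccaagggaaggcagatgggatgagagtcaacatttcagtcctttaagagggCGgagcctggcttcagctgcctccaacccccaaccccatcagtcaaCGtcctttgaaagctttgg
Axl: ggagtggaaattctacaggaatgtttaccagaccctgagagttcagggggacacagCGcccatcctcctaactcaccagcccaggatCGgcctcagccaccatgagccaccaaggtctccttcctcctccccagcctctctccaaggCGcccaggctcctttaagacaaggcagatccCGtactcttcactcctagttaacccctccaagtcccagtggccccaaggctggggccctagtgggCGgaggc
The Kit stretch held 17 CG dinucleotides, a number that 23.5% of 32841 such stretches in the RefSeq table reached. The Ddr1 stretch held 7 (46.3% of stretches held at least as many) and the Axl stretch held 5 (55.6%). Flt3 and Mertk held 13 and 7. The median was 7 over the 5 listed genes with an entry whose start lay within 100 bases of the GENCODE gene start, 14 over 31 other receptor tyrosine kinases and 6 over all stretches. The motif CG reads the same on both strands, and these counts are a description of sequence, not of methylation or of binding.

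Kit (ENSMUSG00000005672; GRCm38 chromosome 5, 75574916 to 75656722, protein coding) had the largest difference of the 6 listed genes that passed the filter on low counts. It was at 104, 118, 168 and 62.3 CPM in Ezh2-deficient replicates 1 to 4, and at 13.6, 15.8, 21.9, 24.5 and 49.5 CPM in WT replicates 1 to 5. Every Ezh2-deficient library was above every WT library, with WT replicate 5 standing above the other WT libraries and Ezh2-deficient replicate 4 nearest to it. The means were 113 ± 43.8 CPM (SD, n = 4) in Ezh2-deficient and 25.1 ± 14.4 CPM (SD, n = 5) in WT Tregs, a 4.51-fold higher level (log2 fold change 2.17, SE 0.43). The heterozygous WT replicate 1 had the lowest value of all 9 libraries. Markers of mast cells, the mature blood cells best known for Kit, were near the floor. Of 8, Mcpt4, Fcer1a, Ms4a2, Tpsb2 and Cma1 had no count in any library, and the list summed to 0.634 to 1.28 CPM in Ezh2-deficient and 0.271 to 0.580 CPM in WT libraries, ranges that did not overlap. Of 5 blood progenitor markers, Elane had no count and Mpo had 1. Cd34 had 1, 0, 7 and 16 counts in Ezh2-deficient libraries and none in the 5 WT libraries, and Meis1 had 4 to 23 counts in Ezh2-deficient and 2 to 21 in WT libraries. Gata1, an erythroid and mast cell transcription factor, rose to 117 ± 23.1 CPM in Ezh2-deficient, against 76.4 ± 14.9 CPM in WT Tregs (log2 fold change 0.61, adjusted p = 0.0183 in edgeR's quasi-likelihood test). Of 4 early thymocyte markers, Dntt rose to 6.16 ± 1.2 CPM in Ezh2-deficient, against 2.24 ± 0.833 CPM in WT Tregs (log2 fold change 1.46, adjusted p = 0.00364, same test), while Rag1, Rag2 and Ptcra had 0 to 4 counts per library. The part of such cells in the Kit level was not tested.

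**Figure D1:**
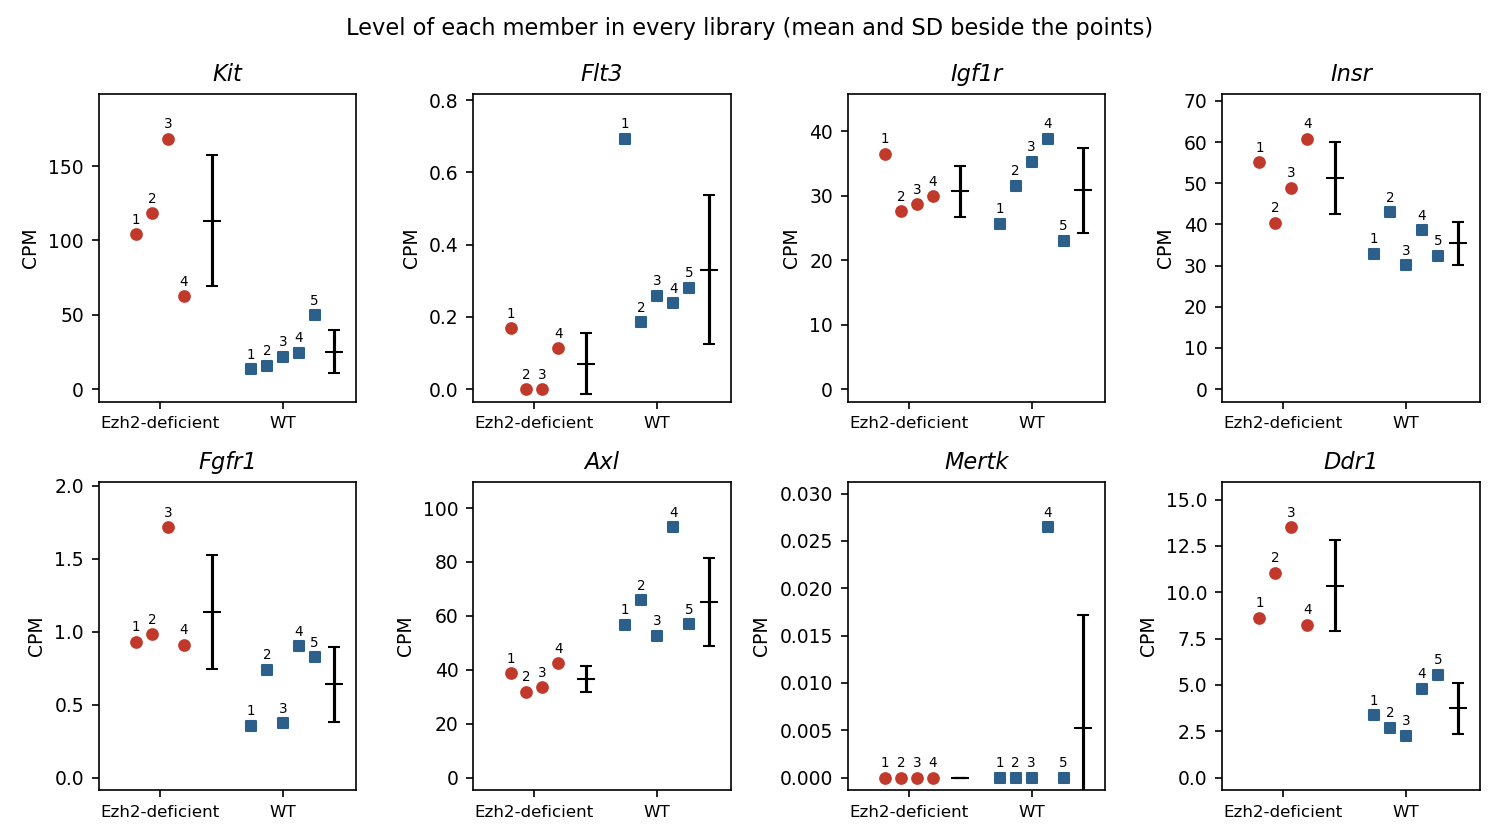
Level of the 8 listed genes in every library, in CPM on linear axes that differ between panels, with Ezh2-deficient libraries (circles) left of WT libraries (squares), replicate numbers above the points and the mean and SD beside them. Kit spans 62.3 to 168 CPM in Ezh2-deficient and 13.6 to 49.5 CPM in WT libraries, while Mertk has a single count in 1 WT library.

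Flt3, the other listed receptor of the Kit family (chromosome 5, 147330741 to 147400489), did not pass the filter. It had 6, 0, 0 and 7 counts in Ezh2-deficient replicates 1 to 4, and 41, 6, 9, 9 and 15 counts in WT replicates 1 to 5. Summed over libraries this was 13 counts in Ezh2-deficient and 80 in WT Tregs, a 4.92-fold lower level (95% exact counting interval 2.72 to 9.64, which covers counting error only). Of the WT counts, 51.2% came from WT replicate 1. The log2 ratio of the mean CPM was -2.23, and it was -3.15 without Ezh2-deficient replicate 1, which leaves 1 library of that group with a Flt3 count. The B cell gene Ms4a1 had no count in the same Ezh2-deficient replicates 2 and 3, and 37 to 163 counts in the other 7 libraries. Other B cell genes were present in those replicates 2 and 3, where Cd79a had 25 and 21 counts and Cd79b 527 and 451. Cd79b was at 12.2 ± 1.02 CPM in Ezh2-deficient cultures and 11.4 ± 0.628 CPM in WT cultures (adjusted p = 0.510, edgeR's quasi-likelihood test). The 6 B cell markers, of which Ighm was by far the most abundant, summed to 421 to 566 CPM in Ezh2-deficient and 558 to 850 CPM in WT libraries. Of 7 dendritic cell markers, Clec9a and Cd209a had no count in any library, and the list summed to 2.11 to 3.31 CPM in Ezh2-deficient and 1.01 to 3.84 CPM in WT libraries. The part of B cells or dendritic cells in the Flt3 counts was not tested.

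Kit stands on chromosome 5 between 2 other receptor genes, Pdgfra, 377 kb to its lower side, and Kdr, 276 kb to its higher side. Both were singled out after their values were seen, and both were too low to be tested. Pdgfra, a platelet-derived growth factor receptor, had 1, 6, 21 and 17 counts in Ezh2-deficient replicates 1 to 4, and 0, 0, 0, 1 and 0 counts in WT replicates 1 to 5, a ratio of 56.3 (95% counting interval 9.60 to 2272). Kdr, a receptor of vascular endothelial growth factor, had 14, 2, 6 and 16 counts in Ezh2-deficient and 0, 2, 0, 3 and 2 in WT libraries, a ratio of 6.79 (3.0 to 18). In CPM, all 4 Ezh2-deficient libraries were above all 5 WT libraries for Pdgfra, whereas for Kdr Ezh2-deficient replicate 2 lay within the WT range. For Pdgfra, Ezh2-deficient replicate 1 and WT replicate 4 had 1 count each (0.0282 and 0.0265 CPM). Only their library sizes set them apart. Exons of Pdgfra overlap the annotated antisense genes Gm42802 and Gm42803 and, on its own strand, Mir7025, and without the strand setting its reads may not all be its own. The homeobox gene Gsx2, which comes after Pdgfra on the lower side, had no count in any library. Srd5a3, a steroid reductase family gene 484 kb to the higher side, fell to 33.1 ± 1.88 CPM in Ezh2-deficient, against 42.8 ± 4.95 CPM in WT Tregs (log2 fold change -0.37, adjusted p = 0.0177, edgeR's quasi-likelihood test).

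Of the receptors of insulin and insulin-like growth factors, Insr was higher in most Ezh2-deficient libraries and Igf1r had like means in both groups. Insr (chromosome 8, 3122061 to 3279617) was at 55.1, 40.4, 48.9 and 60.8 CPM in Ezh2-deficient replicates 1 to 4, and at 32.9, 43.0, 30.1, 38.5 and 32.4 CPM in WT replicates 1 to 5. Ezh2-deficient replicate 2 lay below WT replicate 2, and the other Ezh2-deficient libraries lay above all WT libraries. Insr averaged 51.3 ± 8.74 CPM in Ezh2-deficient libraries and 35.4 ± 5.26 CPM in WT libraries (SD, n = 4 and n = 5), a log2 fold change of 0.54 (SE 0.13). Igf1r (chromosome 7, 67952827 to 68233668) was at 36.5, 27.6, 28.7 and 29.9 CPM in Ezh2-deficient, and at 25.6, 31.5, 35.3, 38.8 and 23.0 CPM in WT libraries. The Ezh2-deficient libraries lay inside the WT range. Its means were 30.7 ± 4.00 CPM in Ezh2-deficient cultures and 30.8 ± 6.57 CPM in WT cultures (log2 fold change -0.01, SE 0.15).

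For Fgfr1 and Ddr1 every Ezh2-deficient library was above every WT library. Fgfr1 (chromosome 8, 25513654 to 25575718) was at 0.930, 0.982, 1.72 and 0.910 CPM in Ezh2-deficient, and at 0.355, 0.741, 0.373, 0.900 and 0.823 CPM in WT libraries. The groups did not overlap, though only by the gap between 0.910 and 0.900 CPM, and each value rests on 13 to 57 counts. The log2 fold change was 0.82 (SE 0.38). Ddr1 (chromosome 17, 35681567 to 35704621) was at 8.63, 11.1, 13.5 and 8.26 CPM in Ezh2-deficient, and at 3.38, 2.68, 2.27, 4.79 and 5.55 CPM in WT libraries. Its means were 10.4 ± 2.44 CPM in Ezh2-deficient cultures and 3.74 ± 1.40 CPM in WT cultures (SD, n = 4 and n = 5), a 2.76-fold higher level (log2 fold change 1.46, SE 0.26). Of 6 genes of epithelial cells, in which Ddr1 is best known, Krt8 and Krt14 had no count in any library. Krt18 rose to 1.08 ± 0.180 CPM in Ezh2-deficient, against 0.500 ± 0.146 CPM in WT Tregs, in the direction of Ddr1 (log2 fold change 1.13, adjusted p = 0.0257 in edgeR's quasi-likelihood test). Cdh1 fell to 5.27 ± 1.16 CPM in Ezh2-deficient, against 9.42 ± 3.21 CPM in WT Tregs (log2 fold change -0.83, adjusted p = 0.0449, same test). The list summed to 18.4 to 27.2 CPM in Ezh2-deficient and 20.3 to 40.5 CPM in WT libraries, and the part of epithelial cells in the level of Ddr1 was not tested. Exons of Fgfr1 and Ddr1 overlap annotated antisense genes, Gm16159 and Gm4577, and the strand setting of the counting is not given in the sources used here.

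Axl was the only one of the 6 listed genes past the filter whose level was lower in every Ezh2-deficient library than in every WT library. Axl (chromosome 7, 25757273 to 25788705) was at 38.7, 31.9, 33.6 and 42.5 CPM in Ezh2-deficient replicates 1 to 4, and at 56.7, 65.8, 52.6, 92.9 and 57.0 CPM in WT replicates 1 to 5. Within WT, replicate 4 stood above the rest. The means were 36.7 ± 4.84 CPM in Ezh2-deficient cultures and 65.0 ± 16.3 CPM in WT cultures (SD, n = 4 and n = 5), which put Axl 1.77-fold lower (SE 0.16 around a log2 fold change of -0.82). Its relative Tyro3, the remaining receptor of the family, was at 21.6 ± 3.24 CPM in Ezh2-deficient cultures and 27.4 ± 5.29 CPM in WT cultures and missed the threshold in edgeR's quasi-likelihood test (adjusted p = 0.116, log2 fold change -0.35). Mertk, the family member best known from macrophages, had no count in the 4 Ezh2-deficient libraries and 1 count in WT replicate 4. With 3 counts taken as the limit that a count of 0 allows, its level was under 0.0488 to 0.0903 CPM in the Ezh2-deficient libraries. Of 10 macrophage markers, C1qb and C1qc had no count and C1qa had 1, while Adgre1 and Itgam rose. Cd14, too low to enter the fit, had 1, 0, 0 and 0 counts in Ezh2-deficient and 6, 4, 6, 18 and 8 counts in WT libraries, lower in the Ezh2-deficient group as Axl was. The list summed to 22.8 to 30.5 CPM in Ezh2-deficient and 11.5 to 19.5 CPM in WT libraries, most of it from Itgam (16.6 to 24.5 CPM in Ezh2-deficient, against 8.52 to 16.3 CPM in WT libraries). The part of macrophages in the level of Axl was not tested.

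Of the 6 listed genes that passed the filter, the fit over all genes called 4, namely Kit, Insr and Ddr1 higher and Axl lower, where 21.9% of the 13685 tested genes were called. No overlap between groups was seen for 4 of the 6, Kit, Fgfr1, Axl and Ddr1, where 21.2% of tested genes did not overlap. Since the genes were picked with this contrast known, nothing is read from these counts.

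Per length, the order of the receptors changed between the groups. In Ezh2-deficient Tregs Kit was first of the 58 receptor tyrosine kinase genes of the mouse at 12.7 ± 4.91 CPM per kilobase of exon (SD, n = 4), followed by Lmtk2, a kinase of the lemur family, at 12.4 ± 0.542, Ephb6, an ephrin receptor without kinase activity, at 10.1 ± 2.02, and Axl at 7.29 ± 0.962. The libraries of Kit overlapped those of Lmtk2, those of Lmtk2 overlapped those of Ephb6, and those of Ephb6 overlapped those of Axl. Lmtk2 did not overlap Axl, nor did Axl overlap the next gene, Ryk. In WT Tregs Axl was first at 12.9 ± 3.25 CPM per kilobase (SD, n = 5), overlapping Lmtk2 at 11.8 ± 0.602, and Kit was seventh of the 58 at 2.81 ± 1.61 CPM per kilobase. The libraries of Kit overlapped those of its neighbours in that order, Ryk, a Wnt coreceptor, at 3.70 ± 0.916, and Insr at 2.58 ± 0.382. Igf1r was at 1.83 ± 0.238 in Ezh2-deficient and 1.84 ± 0.391 CPM per kilobase in WT Tregs, and Ddr1 at 2.17 ± 0.511 in Ezh2-deficient and 0.782 ± 0.293 CPM per kilobase in WT Tregs. Fgfr1, at 0.115 ± 0.0394 in Ezh2-deficient and 0.0646 ± 0.0260 CPM per kilobase in WT Tregs, was far below these, and Flt3, at 0.0115 ± 0.0137 in Ezh2-deficient and 0.0536 ± 0.0333 CPM per kilobase in WT Tregs, overlapped Fgfr1 in WT Tregs. Kit made up 19.0, 20.4, 26.7 and 12.1% of the summed per-length level of the 58 genes in replicates 1 to 4 of the Ezh2-deficient group, and 3.28, 3.32, 4.84, 4.51 and 10.3% in WT replicates 1 to 5. At least 1 count was found for 33 to 34 of the 58 genes in each Ezh2-deficient library, against 30 to 37 in each WT library.

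**Figure D2:**
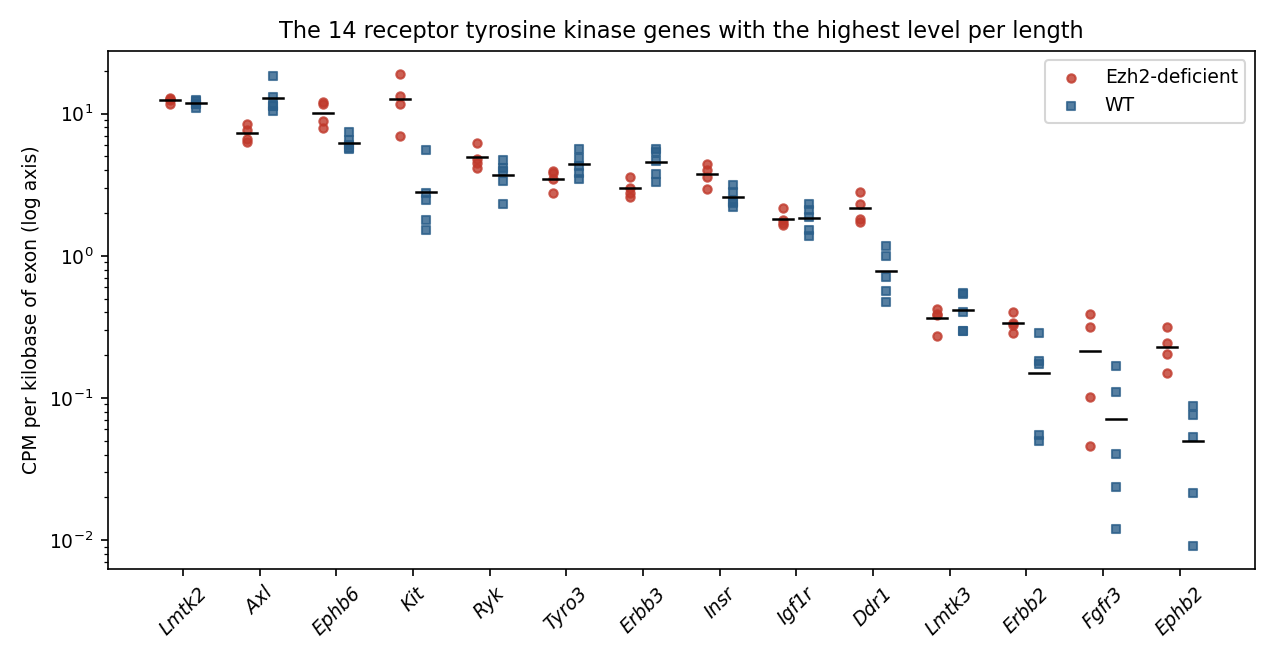
The 14 receptor tyrosine kinase genes with the highest level, in CPM per kilobase of exon on a log axis, 1 point per library, with Ezh2-deficient (circles) left of WT (squares) and lines at the means. Kit moves to a mean of 12.7 in Ezh2-deficient libraries, against 2.81 in WT libraries, and Igf1r has means of 1.83 in Ezh2-deficient and 1.84 in WT libraries.

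Kit also varied within the groups. Among the libraries with a high hypoxia-response score it was at 104 and 62.3 CPM in Ezh2-deficient and 13.6, 15.8 and 24.5 CPM in WT Tregs, a ratio of means of 4.64. Among those with a low score it was at 118 and 168 CPM in Ezh2-deficient and 21.9 and 49.5 CPM in WT Tregs, a ratio of 4.02. Since Kit and Axl do not overlap between the groups over the 9 libraries, their order on each side follows from that and adds nothing to it. Within the Ezh2-deficient group both low-score libraries were above both high-score ones for Kit. Axl showed the opposite order within that group, with 38.7 and 42.5 CPM in the high-score and 31.9 and 33.6 CPM in the low-score libraries. The ratio of Ezh2-deficient to WT means of Axl was 0.565 on the high side and 0.597 on the low side. For Ddr1 the ratios were 2.33 and 3.14, for Fgfr1 1.38 and 2.26, for Insr 1.52 and 1.43, and for Igf1r 1.04 and 0.966. The split and the score were set by these data and not by a label.

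**Figure D3:**
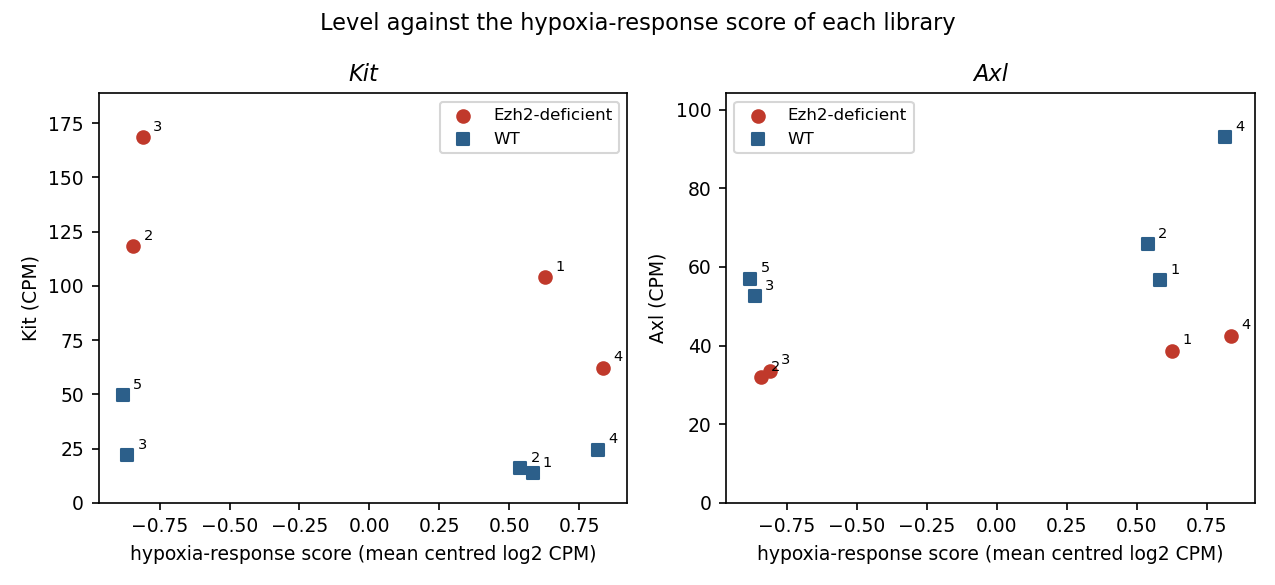
Kit (left) and Axl (right) in CPM against the hypoxia-response score of each of the 9 libraries, with Ezh2-deficient libraries as circles, WT libraries as squares and replicate numbers beside the points. Within the Ezh2-deficient group the 2 low-score libraries have the higher Kit values, 118 and 168 CPM, and the lower Axl values, 31.9 and 33.6 CPM.

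The genes whose profile over the 9 libraries lay nearest to Kit were Tmem176a, Pard3b, C1ql3, Ms4a4b and Pard3. The mean absolute difference of centred log2 CPM was 0.24, 0.25, 0.25, 0.26 and 0.26 among 11734 protein-coding genes compared. The measure follows the difference between the groups, which the 9 libraries share, as well as the variation within them. Of these, Tmem176a, a membrane protein gene, was at 34.3 ± 10.1 CPM in Ezh2-deficient cultures and 5.93 ± 1.96 CPM in WT cultures. Tmem176a belongs to a gene cluster beside Ezh2, and the part of that position in its level was not tested. Ms4a4b, a tetraspan membrane protein gene of T cells, was at 552 ± 179 CPM in Ezh2-deficient cultures and 149 ± 72.7 CPM in WT cultures. The polarity gene Pard3 was at 9.73 ± 1.76 CPM in Ezh2-deficient cultures and 2.37 ± 0.954 CPM in WT cultures. The nearest profiles to Ddr1 were those of Elovl6, a fatty acid elongase gene, and Cd200r4 (0.18 and 0.19), and those nearest to Axl were Cryz and Arid3a (0.13 and 0.13). Gabbr1 and Spata1 were nearest to Insr (0.06 and 0.08), Ddit3 and Ldlrad4 to Igf1r (0.07 and 0.07), and Abcc3 was near to Fgfr1 (0.22).

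Of the 50 receptor tyrosine kinases outside the list, 11 had no count in any library, 24 had counts but did not pass the filter, and 15 were tested. Of the 15, Ephb6, Ephb2, Pdgfrb and Egfr rose and Ntrk3 and Erbb3 fell in Ezh2-deficient Tregs. That is 26.7% higher and 13.3% lower, against 13.1% and 8.8% of all tested genes, and the median log2 fold change was 0.42, against 0.00 over all tested genes. This list and those below were chosen with earlier results of these data known, so their shares are given as a description. Within the libraries of high hypoxia-response score 3 receptors outside the list were called, where 12.6% of 13999 tested genes were. Within those of low score 0 were called, where 4.13% of 13787 tested genes were. Without Ezh2-deficient replicate 3 the number was 3, and over the whole table it was 1972, against 3001 with all libraries. The other 9 tested genes, Erbb2, Fgfr3, Ptk7, Epha2, Tyro3, Ryk, Ltk, Lmtk2 and Lmtk3, did not pass. All adjusted p values here and below are from edgeR's quasi-likelihood test.

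Ephb6 was the most abundant of the 6, at 33.5, 45.5, 43.9 and 30.0 CPM in Ezh2-deficient and 21.7, 24.4, 28.2, 22.6 and 21.3 CPM in WT libraries (log2 fold change 0.69, SE 0.14, adjusted p = 0.00423). The groups did not overlap. Ephb6 lies on chromosome 6 (41605482 to 41620509), 5.91 Mb from Ezh2. Erbb3, a neuregulin receptor with a weak kinase, was at 15.7, 18, 16.5 and 21.4 CPM in Ezh2-deficient and 22.5, 28.1, 19.8, 33.9 and 32.1 CPM in WT libraries. It fell (log2 fold change -0.61, SE 0.16, adjusted p = 0.0208), although Ezh2-deficient replicate 4 lay above WT replicate 3. Without Ezh2-deficient replicate 1 its change was -0.57 (adjusted p = 0.0600), and without replicate 3 of that group -0.59 (adjusted p = 0.0571), both short of the threshold.

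The other 4 were expressed at few counts. Ephb2, an ephrin receptor with an active kinase, was at 4.00, 1.90, 2.59 and 3.09 CPM in Ezh2-deficient and 0.271, 0.957, 0.115, 1.11 and 0.673 CPM in WT libraries (log2 fold change 2.22, SE 0.50, adjusted p = 0.00863), without overlap. Pdgfrb, the second platelet-derived growth factor receptor and a member of the Kit family, had 40, 62, 32 and 40 counts in Ezh2-deficient and 1, 7, 0, 12 and 12 counts in WT libraries, also without overlap (log2 fold change 2.75, SE 0.68, adjusted p = 0.0137). Egfr, the epidermal growth factor receptor, had 35, 39, 90 and 24 counts in Ezh2-deficient and 13, 7, 6, 15 and 26 counts in WT libraries (log2 fold change 2.02, SE 0.54, adjusted p = 0.0204). In CPM the lowest Ezh2-deficient library for Egfr, replicate 4 at 0.390, lay below the 2 highest WT libraries at 0.397 and 0.486. The change was 1.28 without Ezh2-deficient replicate 3, which no longer passed (adjusted p = 0.0987). Ntrk3, the receptor of neurotrophin-3, had 29, 6, 5 and 9 counts in Ezh2-deficient and 98, 108, 24, 133 and 40 counts in WT libraries (log2 fold change -2.70, SE 0.71, adjusted p = 0.0197). Ezh2-deficient replicate 1 was at 0.818 CPM, within the WT range of 0.689 to 3.52 CPM, and the change was -3.78 without it. Ntrk3 was no longer called without Ezh2-deficient replicate 3 (-2.52, adjusted p = 0.0588) or without replicate 4 of that group (-2.45, adjusted p = 0.0539).

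**Figure D4:**
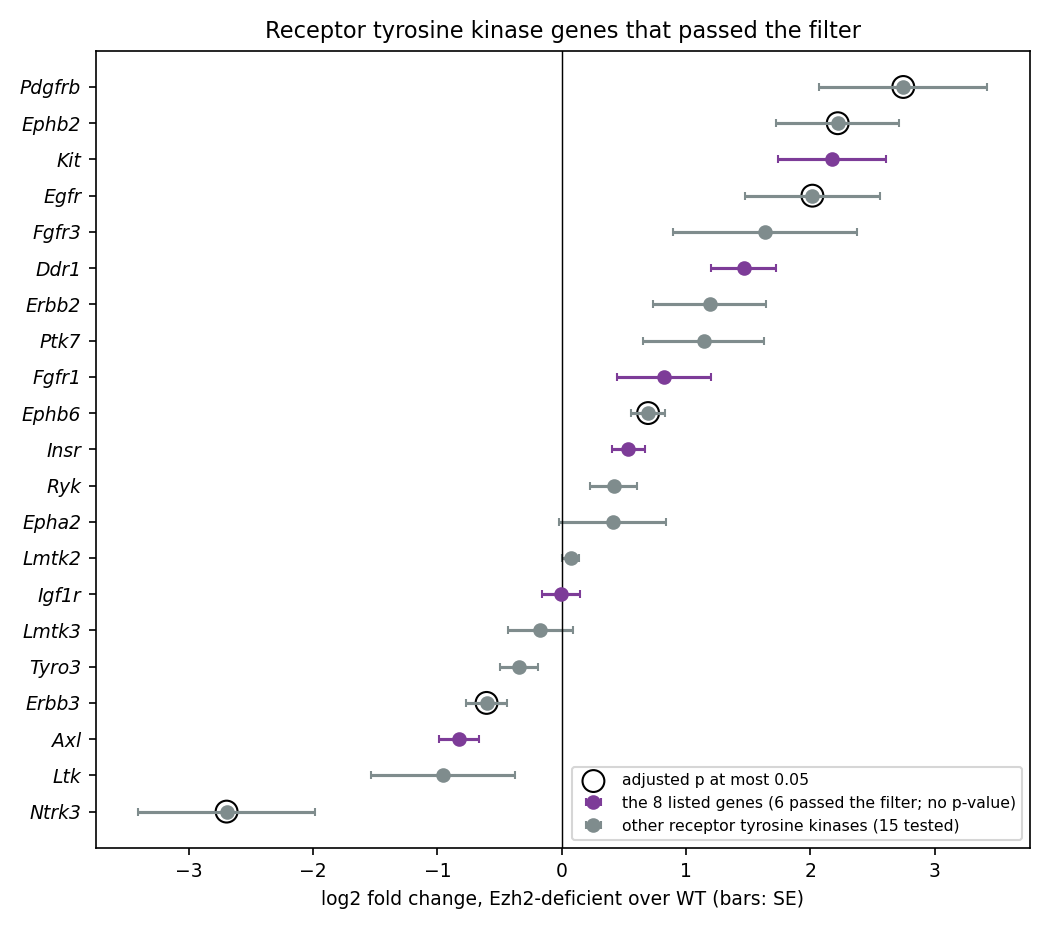
Log2 fold change of Ezh2-deficient over WT for the 21 receptor tyrosine kinase genes that passed the filter, with bars of 1 SE. Purple points are the listed genes, for which no p-value is given, grey points the other receptors, and rings mark the 6 of these with an adjusted p of at most 0.05, from Pdgfrb at 2.75 to Ntrk3 at -2.70.

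Most ligand genes were low or without counts, with a few abundant exceptions. Of 43 ligand, binding protein and coreceptor genes, 42 were found by symbol (Flt3l was not analysed here), 16 of these had no count, among them both insulin genes, Ins1 and Ins2, and 9 fibroblast growth factor genes, and 11 were tested. Igfbp7, an insulin-like growth factor binding protein gene, rose and Col4a2, a basement membrane collagen gene, fell, 18.2% of those tested, near the 21.9% of all genes. Within the high-score libraries, where 12.6% of all tested genes were called, 1 of the list was. Within the low-score libraries, where 4.13% were, 1 of the list was. Igfbp7 was at 51.9 ± 19.2 CPM in Ezh2-deficient cultures and 31.2 ± 4.68 CPM in WT cultures (log2 fold change 0.73, adjusted p = 0.0328). Leaving out replicate 2 (0.46) or 3 (0.67) of the Ezh2-deficient group, or replicate 2 (0.73), 3 (0.64) or 4 (0.69) of the WT group, raised its adjusted p to between 0.0623 and 0.0928. Col4a2 was at 0.521 ± 0.363 CPM in Ezh2-deficient cultures and 2.08 ± 1.10 CPM in WT cultures (log2 fold change -1.99, adjusted p = 0.0237). Its call did not survive leaving out Ezh2-deficient replicate 1 (-2.07, adjusted p = 0.0537), replicate 3 (-1.77, adjusted p = 0.0624) or replicate 4 (-1.78, adjusted p = 0.0608). Kitl, the Kit ligand, did not reach the filter and had 11, 9, 7 and 9 counts in Ezh2-deficient and 2, 0, 1, 1 and 5 counts in WT libraries. Gas6, the ligand of Axl and Mertk, had 44 counts in Ezh2-deficient and 16 in WT libraries. Pros1, which encodes protein S, a ligand of Mertk but not of Axl, was well expressed. It was at 104 ± 14.3 CPM in Ezh2-deficient cultures and 83.9 ± 8.58 CPM in WT cultures and just missed the threshold (log2 fold change 0.31, adjusted p = 0.0517).

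Downstream of the receptors, adaptor genes moved both ways. Of 32 adaptor and proximal signalling genes, 30 were tested, 9 rose and 4 fell, or 43.3% of those tested against 21.9% of all genes, with a median log2 fold change of 0.19. Since earlier results of these data were known when the list was chosen, this share is a description. Lyn, a Src family kinase, was at 25.0 ± 3.45 CPM in Ezh2-deficient cultures and 8.06 ± 0.231 CPM in WT cultures (log2 fold change 1.63, SE 0.11, adjusted p = 5.48e-06). The PI3K regulatory subunit gene Pik3r3 rose to 19.6 ± 3.80 CPM in Ezh2-deficient, against 7.30 ± 0.595 CPM in WT Tregs, and the phospholipase gene Plcg2 to 14.6 ± 2.32, against 6.26 ± 1.63 CPM (adjusted p = 7.1e-05 and 0.00121, at log2 fold changes of 1.42 and 1.22). Grb7, an adaptor of receptor tyrosine kinases, fell to 3.81 ± 1.2 CPM in Ezh2-deficient, against 10.2 ± 2.36 CPM in WT Tregs (log2 fold change -1.42, adjusted p = 0.00195). The groups did not overlap for any of these 4. Within the high-score libraries, where 12.6% of all tested genes were called, 8 of the list were. Within the low-score libraries, where 4.13% were, 2 of the list were.

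Genes that restrain receptor signalling moved both ways, more of them up. Of 31 such genes, 28 were tested, 12 rose and 3 fell, or 53.6% of those tested against 21.9% of all genes. The median log2 fold change was 0.30, against 0.00 over all tested genes. This list too was chosen with earlier results of these data known, so its share is a description. Errfi1, an inhibitor of ErbB receptors, rose to 42.7 ± 10.6 CPM in Ezh2-deficient, against 13.5 ± 2.34 CPM in WT Tregs (log2 fold change 1.66, SE 0.17, adjusted p = 7.99e-05). Cblb, a ubiquitin ligase that limits receptor signalling in T cells, rose to 133 ± 9.58 CPM in Ezh2-deficient, against 96.3 ± 3.91 CPM in WT Tregs, and Spry1, a Sprouty inhibitor of the ERK pathway, to 39.1 ± 6.29, against 23.0 ± 3.08 CPM (adjusted p = 0.00101 and 0.00173, at log2 fold changes of 0.47 and 0.76). Rasa1, a GTPase-activating protein of RAS, rose to 278 ± 27.8 CPM in Ezh2-deficient, against 170 ± 29.2 CPM in WT Tregs (log2 fold change 0.71, adjusted p = 0.00182). None of these 4 overlapped between the groups. Within the high-score libraries, where 12.6% of all genes were called, 11 of the list were, and within the low-score libraries, where 4.13% of all genes were, 3 of the list were.

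Of 23 genes of the RAS-ERK and PI3K-AKT pathways, all were tested, 5 rose and 0 fell, or 21.7% of those tested, close to the 21.9% of all genes. Braf, a kinase between RAS and ERK, rose to 133 ± 9.81 CPM in Ezh2-deficient, against 84.8 ± 4.36 CPM in WT Tregs (log2 fold change 0.65, adjusted p = 0.000165), and lies 7.80 Mb from Ezh2 on chromosome 6. Rasgrp1, the RAS exchange factor of T cells, rose to 795 ± 58.3 CPM in Ezh2-deficient, against 434 ± 71.8 CPM in WT Tregs (log2 fold change 0.87, adjusted p = 0.000466). Rictor, a subunit of the mTORC2 complex, rose to 194 ± 19.9 CPM in Ezh2-deficient, against 134 ± 17.0 CPM in WT Tregs (log2 fold change 0.53, adjusted p = 0.00423). Within the high-score libraries, where 12.6% of all tested genes were called, 5 of the list were. Within the low-score libraries, where 4.13% were, 0 of the list were. Exons of Braf, Rasa1, Col4a2 and Igfbp7 overlap antisense protein-coding genes, so that without the strand setting their reads may not all be their own. The same holds for the antisense non-coding genes Gm26857 and Gm42922 at Lyn and Spry1, and Pik3r3 shares exons with the annotated gene Gm49337 on its own strand. At an unadjusted p under 0.05 in edgeR 2 genes of this list were lower, Akt1 and Mtor, while DESeq2 called 1 lower and limma-voom 0.

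**Figure D5:**
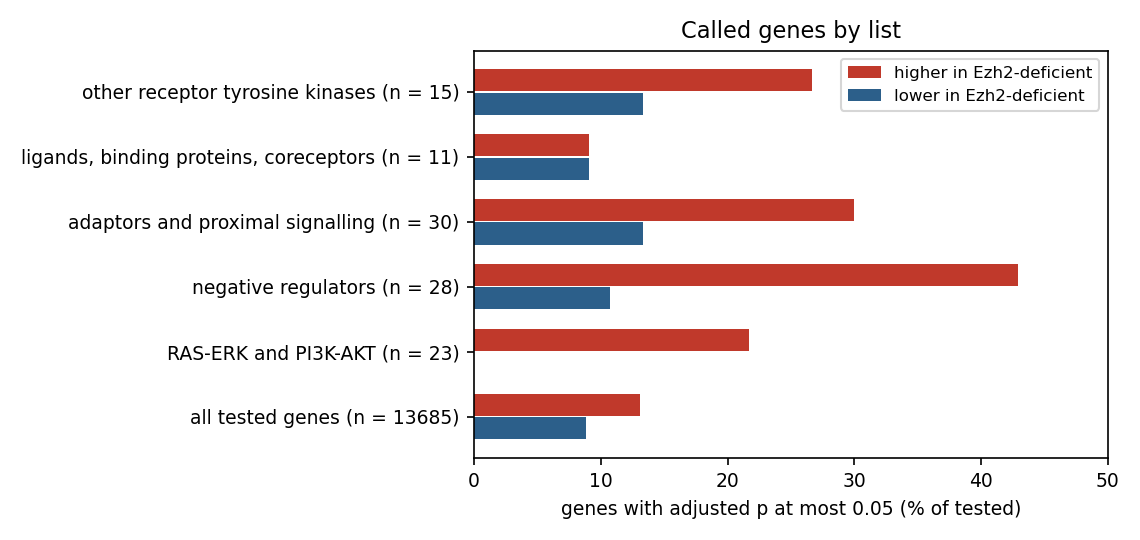
Share of tested genes with an adjusted p of at most 0.05, in percent, for 5 lists and for all tested genes, with the bar for genes higher in Ezh2-deficient Tregs above the bar for those lower. The negative regulators have the highest share of higher genes, 42.9%, against 13.1% of all tested genes, and the RAS-ERK and PI3K-AKT list has no lower gene. The lists were chosen with earlier results of these data known.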

How the data were processed

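RNA was made into stranded mRNA libraries (TruSeq), per the labels' protocols. Reads were aligned to GRCm38 with STAR, per the submitters' processing notes, and the authors deposited raw read counts per Ensembl gene. How reads were assigned to genes, with which strand setting and annotation, is not given in the sources used here. Of 43432 genes, 42548 matched GENCODE M21, from which symbols, positions and exon lengths were taken, and 22839 had a count. Genes were filtered with filterByExpr, scaled by TMM and compared between the 4 Ezh2-deficient and 5 WT libraries with edgeR 4.0.16 (R 4.3.3) by the robust quasi-likelihood F-test, with Benjamini-Hochberg adjustment over all 13685 tested genes and a threshold of 0.05. The biological coefficient of variation was 0.2064. SEs were the log2 fold change divided by the square root of F. Per-length levels are CPM per kilobase of merged exons. The 20 alternatives included DESeq2 1.42.0, limma-voom 3.58.1, other scalings and filters and leaving out each library. The hypoxia-response score averaged log2 CPM (prior count 2) after each gene's mean was subtracted, and its 2 sides were divided at the widest gap. The edgeR step was tested on simulated data.

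The series' text calls the samples biological replicates. Same-numbered libraries did not deviate together in every pair. No 2 libraries agreed within sampling noise (lowest chi-square per degree of freedom 23.6). Counting intervals are exact 95% intervals. The receptor genes and the lists were chosen with earlier results of these data known. Named genes were the 8 receptors, the 4 called genes of lowest adjusted p per pathway list, all called other receptors with the 5 most abundant per length, and the 5 nearest profiles to Kit and 2 to each other tested receptor; ligands of the listed receptors, marker genes and the neighbours of Kit were named besides. Some genes that this rule names are not reported here. The 8 receptors carry no p-value because the same contrast chose them.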

Additional observations from a re-analysis of the deposited data

Results flagged for a closer look

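Of 62 groups of libraries examined for a single library far from the rest of its group, 3 held one, where chance gives about 1 in 20. Flt3 in WT replicate 1, the library of the heterozygous mouse, was at 0.694 CPM, against 0.185 to 0.281 CPM in the other 4 WT libraries. Fgfr1 in Ezh2-deficient replicate 3 was at 1.72 CPM, against 0.910 to 0.982 CPM in the other 3 Ezh2-deficient libraries, and without it the log2 fold change of Fgfr1 was 0.54. Ntrk3 in Ezh2-deficient replicate 1 was at 0.818 CPM, against 0.137 to 0.151 CPM in the other 3 Ezh2-deficient libraries. All 3 genes were at few counts, and the origin of these values was not tested.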

How the results depend on the processing

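The 6 listed genes that passed the filter kept their sign in every alternative that gave a value, except Igf1r, whose log2 fold change lay on both sides of 0. Since Kit, Fgfr1, Axl and Ddr1 did not overlap between the groups, keeping the sign with fewer libraries follows from that and adds nothing. Leaving out 1 library at a time gave log2 fold changes of 1.90 to 2.56 for Kit, -0.12 to 0.09 for Igf1r, 0.42 to 0.61 for Insr, 0.54 to 0.98 for Fgfr1, -0.93 to -0.66 for Axl and 1.29 to 1.64 for Ddr1, and log2 ratios of -3.15 to -1.77 for Flt3. It gave 1972 to 3168 called genes over the whole table, 1170 to 1744 of them higher, 3 to 7 other receptor tyrosine kinases, 0 to 3 ligands, 9 to 14 adaptors, 12 to 15 negative regulators and 5 to 7 RAS-ERK and PI3K-AKT genes; the lowest ligand count was without Ezh2-deficient replicate 3. A filter of 1 CPM in 4 libraries left 3 other receptors called, and the ligand count was 5 with DESeq2 and 1 with limma-voom. A test against a 1.5-fold change called 410 genes (362 higher), among them 0 other receptors, 0 ligands, 4 adaptors, 3 negative regulators and 0 RAS-ERK and PI3K-AKT genes. The 5 libraries of high hypoxia-response score gave 1764 called genes (1067 higher), 12.6% of those tested, with 3 other receptors, 1 ligand and 8 adaptors. The 4 of low score gave 570 (424 higher), 4.13% of those tested. Among these were 0 other receptors, 1 ligand, 2 adaptors, 3 negative regulators and 0 RAS-ERK and PI3K-AKT genes. These subsets hold fewer samples. The deviations of same-numbered libraries correlated at 0.15, -0.08, 0.11 and 0.19. Without the values of differently numbered libraries beside them, these do not settle whether the replicate numbers pair the samples. With the replicate block Kit was at 2.53, and 2767 genes were called, 7 of them other receptors; Egfr then missed the threshold (adjusted p = 0.0523) and Ryk passed it (adjusted p = 0.0430). Other scalings gave a median log2 fold change of all genes of -0.03 to -0.01, against 0.00. Flt3 had no value among the low-score libraries, where both Ezh2-deficient libraries were at 0, and was followed only as a ratio of mean CPM, not in the model fits. Fgfr1 had no value with the 1 CPM filter. At a BCV of 0.2064 and these depths, genes of few counts, Flt3, Fgfr1, Pdgfra and Kdr among them, are measured least precisely.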
